A study of Mus musculus with 4 samples.

Results

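The enzymes and carriers of ketone body metabolism were compared at the mRNA level between the livers of DBA/2J and C57BL/6J mice, both inbred laboratory strains, through 6 genes chosen by name: Acat1, Bdh1, Bdh2, Oxct1, Slc16a1 and Slc16a6. All 6 were found among the 50584 gene symbols of the count tables, and all 6 passed the filter on low counts that left 15647 genes for testing. Poly(A) RNA was sequenced from 2 mice of each strain, every one of them a wild-type male aged 14 weeks and fed chow, so that strain is the only labelled difference. Whether the mice had been fasted is not given in the sources used here. In bulk liver RNA, a change in the number of cells of a type and a change in the RNA per cell cannot be told apart.

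Ketone bodies are made in the mitochondria of hepatocytes when fatty acid oxidation supplies more acetyl-CoA than the citric acid cycle takes up. A thiolase joins acetyl units to acetoacetyl-CoA, further steps turn this into acetoacetate, and a dehydrogenase of the inner membrane reduces part of it to beta-hydroxybutyrate. Both acids leave the hepatocyte through monocarboxylate carriers and are burned in heart, muscle, brain and kidney, where succinyl-CoA:3-oxoacid CoA transferase reactivates acetoacetate. Hepatocytes are known for having very little of that transferase, so the liver exports what it makes.

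The 2 annotated starts of Bdh1, a gene called higher in DBA/2J, and the start of Slc16a1, which was not called, are shown by the 250 bases before each RefSeq start (GRCm38.p6, forward strand). Bases in capitals match a searched motif on either strand.
Bdh1, chr16:31422047-31422296: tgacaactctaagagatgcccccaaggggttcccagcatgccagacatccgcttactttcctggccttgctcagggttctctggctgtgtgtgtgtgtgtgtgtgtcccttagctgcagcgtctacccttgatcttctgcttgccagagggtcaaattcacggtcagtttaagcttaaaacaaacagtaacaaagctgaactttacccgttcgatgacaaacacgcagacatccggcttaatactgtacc
Bdh1, chr16:31428503-31428752: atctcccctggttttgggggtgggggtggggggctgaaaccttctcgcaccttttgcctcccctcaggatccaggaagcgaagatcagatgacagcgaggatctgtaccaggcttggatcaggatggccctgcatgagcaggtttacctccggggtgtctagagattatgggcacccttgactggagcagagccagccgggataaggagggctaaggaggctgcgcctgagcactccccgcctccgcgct
Slc16a1, chr3:104638414-104638663: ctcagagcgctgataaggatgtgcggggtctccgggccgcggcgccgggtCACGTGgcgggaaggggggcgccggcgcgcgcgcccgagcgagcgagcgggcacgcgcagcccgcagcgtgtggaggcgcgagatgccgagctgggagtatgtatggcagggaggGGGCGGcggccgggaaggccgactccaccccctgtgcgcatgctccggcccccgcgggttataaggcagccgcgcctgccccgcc

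Promoter windows were found for 4 of the 6 genes, at 5 starts, and searched for 6 motifs on both strands. The motifs were the PPAR response element AGGTCANAGGTCA, its half-site AGGTCA, the E-box CACGTG, the CCAAT box, the GC box GGGCGG and the TATA box TATAAA. The half-site lies within the full PPAR element, so a match of the element counts for both. Neither Bdh1 window nor the Oxct1 window held any of the 6. The Bdh2 window held 1 CCAAT box, a motif present in 33.8% of the 32851 windows of the same length. The Slc16a1 window held 1 E-box and 1 GC box, found in 6.02% and 32.7% of all windows. The half-site stood in 14% of windows, the full element in 0.0335% and the TATA box in 12.4%. The G and C content was 49.6% and 60.8% before the Bdh1 starts and 76.4% before Slc16a1.

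Of the 6 genes, 2 were higher in DBA/2J and 0 were lower in edgeR's quasi-likelihood test on TMM-scaled counts at a Benjamini-Hochberg adjusted p below 0.05: Slc16a6 by 1.47-fold and Bdh1 by 1.31-fold. Across all tested genes, 9.29% were called higher and 8.87% lower, 18.2% in all. The DBA/2J libraries lay above both C57BL/6J libraries for 4 of the 6, Acat1, Bdh1, Oxct1 and Slc16a6, where 32.5% of all tested genes did so. Bdh2 and Slc16a1 had overlapping libraries. With DBA/2J replicate 1 or DBA/2J replicate 2 left out, 0 of the 6 were called, and 1.79% and 1.92% of all genes were called in either direction. The log2 differences were then 0.32 and 0.43 for Bdh1 and 0.42 and 0.67 for Slc16a6, against 0.39 and 0.56 with all 4 libraries. Leaving out a library leaves 1 in its strain, so a gene's own spread comes from the pair of the other strain alone. The edgeR test also draws on the spread of all genes, and the lone library is assumed to vary like that pair. Here and below, a call lost in this way does not show that the difference rests on the library left out. With C57BL/6J replicate 1 left out, of the 6 Slc16a6 alone was called (24.2% of all genes), and with C57BL/6J replicate 2 left out 3 were, Acat1 joining Bdh1 and Slc16a6 (29.9% of all genes). With no filter on low counts 0 of the 6 were called (5.87% of all genes), and by DESeq2 or with scaling by library totals alone the same 3 were (18.8% of all genes under each).

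**Figure D1:**
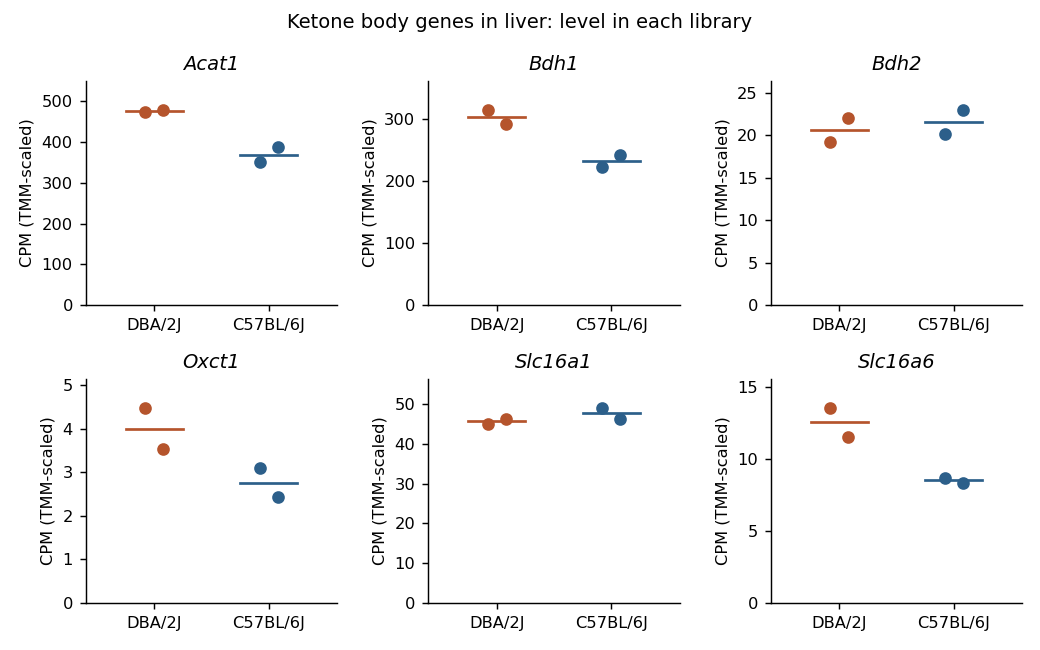
Level of each gene in each library, in CPM after TMM scaling (linear axes from 0). Points are libraries and lines are the means of the 2 libraries of a strain. The DBA/2J points of Acat1, Bdh1, Oxct1 and Slc16a6 lie above both C57BL/6J points, and those of Bdh2 and Slc16a1 overlap them.

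Set on a common scale of CPM per kilobase of annotated exon, the genes kept 1 order of level in every library, and no 2 neighbours in that order overlapped. Acat1 was the most abundant, at 127 ± 0.793 (SD, n = 2) in DBA/2J and 98.2 ± 7.09 in C57BL/6J. Bdh1 followed at 79.8 ± 4.06 and 61.04 ± 3.51, then Slc16a1 at 10.3 ± 0.235 and 10.8 ± 0.424. Bdh2 stood at 4.87 ± 0.471 and 5.08 ± 0.458, Slc16a6 at 2.57 ± 0.290 and 1.74 ± 0.0440, and Oxct1 lowest at 1.08 ± 0.182 and 0.746 ± 0.129. The synthesis enzymes were thus far above the enzyme of use: the length-scaled level of Oxct1 was 1.03% to 1.46% of that of Bdh1 in the 4 libraries.

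**Figure D2:**
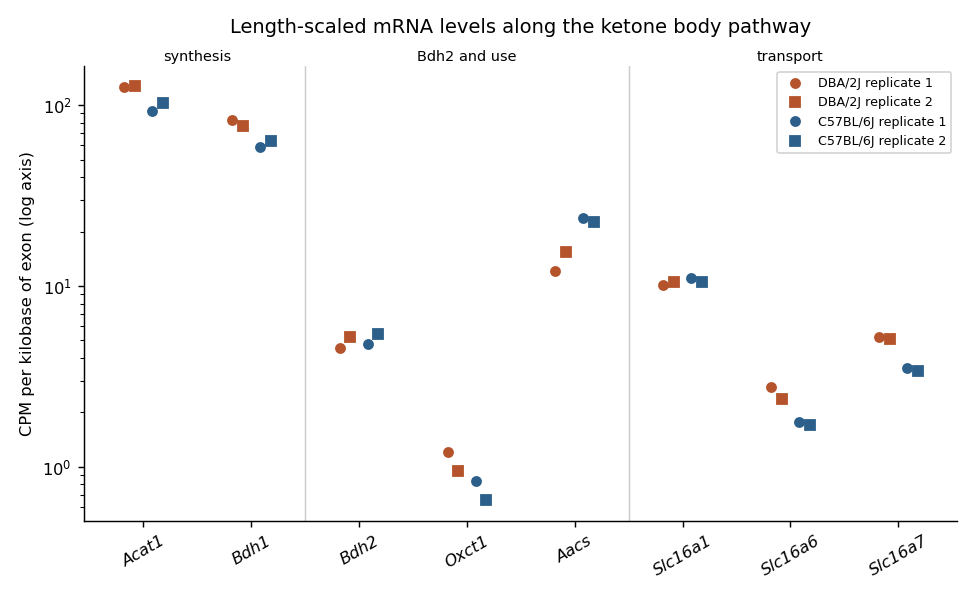
Length-scaled level (CPM per kilobase of exon, log axis) of the 6 genes beside Aacs and Slc16a7, 1 point for each of the 4 libraries. Acat1, at 127 and 98.2, and Bdh1, at 79.8 and 61.04, lie at the top, while Oxct1 is lowest at 1.08 and 0.746 (means in DBA/2J and C57BL/6J).

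Acat1 encodes the mitochondrial acetoacetyl-CoA thiolase, which makes acetoacetyl-CoA for synthesis, splits it again when ketone bodies are used, and also acts in isoleucine breakdown. It lies on chromosome 9 at 53580522 to 53610382 (GRCm38, reverse strand), and its exons overlapped those of 0 other symbols. Counts were 22843 and 26427 in the DBA/2J libraries (replicate 1, then 2) and 17066 and 19358 in those of C57BL/6J, or 474 and 478 CPM against 350.2 and 388 CPM. Both DBA/2J libraries were higher, and they differed less from each other than the C57BL/6J pair did. The log2 difference, DBA/2J over C57BL/6J, was 0.37 ± 0.10 (SE), with a 95% interval from 0.13 to 0.60 and an edgeR adjusted p of 0.0515, just outside the threshold. It was called by DESeq2 (adjusted p = 0.0177) and with scaling by library totals alone (edgeR adjusted p = 0.0281). With no filter on low counts it was not called (edgeR adjusted p = 0.0844). Leaving out single libraries gave log2 differences from 0.29 to 0.44.

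Bdh1 encodes the D-beta-hydroxybutyrate dehydrogenase of the inner mitochondrial membrane, which interconverts acetoacetate and beta-hydroxybutyrate. It lies on chromosome 16 at 31422280 to 31458901 (forward strand). Reads assigned to it numbered 15147 and 16162 in DBA/2J and 10846 and 12047 in C57BL/6J, or 314 and 292 CPM against 223 and 241 CPM. Both DBA/2J libraries were above both C57BL/6J libraries. The log2 difference was 0.39 ± 0.09 (interval 0.16 to 0.61, edgeR adjusted p = 0.0397). Leaving out DBA/2J replicate 1 ended the call (edgeR adjusted p = 0.304), as did leaving out DBA/2J replicate 2 (0.193) or C57BL/6J replicate 1 (0.0534). Of its exon bases, 14.0% overlapped the antisense transcript Gm15743, which had 2 to 20 counts in a library.

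Both synthesis genes kept nearly the same proportion to each other in every library. The length-scaled level of Bdh1 was 65.6% and 60.5% of that of Acat1 in the DBA/2J libraries and 62.9% and 61.5% in the C57BL/6J libraries, so the strains overlapped in this ratio. The ratio was not tested.

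Bdh2 encodes a cytosolic short-chain dehydrogenase that was named for activity on beta-hydroxybutyrate and has also been linked to making an iron-binding siderophore in mouse cells. It lies on chromosome 3 at 135281221 to 135304426 (forward strand), with 0 overlapping symbols. Its levels were 19.3 and 22.1 CPM in DBA/2J and 20.2 and 23.0 CPM in C57BL/6J. The strains' libraries interleaved. The log2 difference was -0.06 ± 0.12 with an interval from -0.36 to 0.24 (edgeR adjusted p = 0.760), and its sign turned with library-total scaling (0.02), with DBA/2J replicate 1 left out (0.02) and with C57BL/6J replicate 2 left out (0.03). The length-scaled level of Bdh2 was 5.49% to 8.51% of that of Bdh1, and this proportion was lower in both DBA/2J libraries, at 5.49% and 6.77%, than in C57BL/6J, at 8.12% and 8.51%.

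Oxct1 encodes succinyl-CoA:3-oxoacid CoA transferase, the enzyme that commits acetoacetate to use. It lies on chromosome 15 at 4026383 to 4155344 (forward strand). Reads assigned to it numbered 216 and 195 in DBA/2J and 151 and 121 in C57BL/6J, or 4.48 and 3.52 CPM against 3.10 and 2.42 CPM, and 35.1% of tested genes had a lower mean CPM. The DBA/2J libraries were above the C57BL/6J libraries. However, the exact Poisson 95% intervals of the counts, not scaled to library size, overlapped between strains. They reached down to 169 for DBA/2J replicate 2 and up to 177 for C57BL/6J replicate 1. The log2 difference was 0.53 ± 0.23 with an interval from -0.05 to 1.11 (edgeR adjusted p = 0.169), so the data allowed anything from a slightly lower level to one 2.16-fold higher in DBA/2J. Leaving out single libraries gave log2 differences from 0.34 to 0.71, with edgeR adjusted p from 0.0740 to 0.632. An opposite-strand transcript, BC037032, overlapped 12.6% of its exon bases and had 1 to 5 counts in a library.

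Heart and skeletal muscle express Oxct1 strongly, and muscle transcripts differed between the libraries. The 6 muscle markers summed to 0.166 and 6.53 CPM in DBA/2J replicates 1 and 2 and to 10.5 and 0.140 CPM in C57BL/6J replicates 1 and 2, with Myh6, a cardiac myosin gene, at 5.60 CPM in DBA/2J replicate 2 and 6.44 CPM in C57BL/6J replicate 1. Of these markers, Tnnt3 was at 0 in all 4 libraries and 0 were called. Oxct1 was higher in DBA/2J replicate 1, with the lower muscle sum, than in replicate 2. In C57BL/6J it was higher in replicate 1, with the higher muscle sum. The part of muscle RNA in the Oxct1 counts was not tested.

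Slc16a1 encodes monocarboxylate transporter MCT1, a proton-coupled carrier of lactate, pyruvate and ketone bodies. It lies on chromosome 3 at 104638668 to 104658462 (forward strand), with 0 overlapping symbols. Its levels were 44.9 and 46.3 CPM in DBA/2J and 49.0 and 46.3 CPM in C57BL/6J. DBA/2J replicate 2 and C57BL/6J replicate 2 were almost level, and the log2 difference was -0.06 ± 0.08 with an interval from -0.27 to 0.14 (edgeR adjusted p = 0.622). That interval excludes a level more than 1.10-fold higher in DBA/2J. With scaling by library totals alone the sign turned (0.02). Bsg, the membrane chaperone that carries MCT1 to the cell surface, was at 403 and 341 CPM against 384 and 384 CPM and was not called either (log2 -0.04, edgeR adjusted p = 0.806).

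Slc16a6 encodes monocarboxylate transporter MCT7, shown to carry ketone bodies out of the liver in zebrafish. It lies on chromosome 11 at 109450855 to 109473598 (reverse strand). Reads assigned to it numbered 653 and 638 in DBA/2J and 422 and 417 in C57BL/6J, or 13.5 and 11.5 CPM against 8.66 and 8.36 CPM. Both DBA/2J libraries were higher, and the C57BL/6J pair lay close together. The log2 difference was 0.56 ± 0.14 (interval 0.22 to 0.90, edgeR adjusted p = 0.0436). Leaving out DBA/2J replicate 1 ended the call (edgeR adjusted p = 0.352), as did leaving out DBA/2J replicate 2 (0.180), and it held without either C57BL/6J library. The length-scaled level of Slc16a6 was 27.3% and 22.6% of that of Slc16a1 in DBA/2J and 16.0% and 16.3% in C57BL/6J.

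The exons of Slc16a6 overlapped those of 3 other symbols over 23.5% of their bases, among them Arsg and Amz2 on the opposite strand. The counts were made with no stated strand option. On the shared bases, reads of a gene and of its opposite-strand partner therefore cannot be told apart. Arsg, which encodes a lysosomal sulfatase, had 2390 and 2148 counts in DBA/2J and 756 and 782 in C57BL/6J, and was called 2.83-fold higher in DBA/2J (edgeR adjusted p = 0.0026). That call held with any single library left out. Amz2 stood at 16.2 and 15.6 CPM against 16.0 and 15.7 CPM and was not called (log2 interval -0.25 to 0.25, edgeR adjusted p = 0.990). Among transcripts of other genes, those of Amz2 alone matched Slc16a6 over at least 100 bases. The longest match was 1056 bases at 100% identity. Whether Arsg reads add to the Slc16a6 counts was not tested. Arsg and Amz2 were picked for their overlap after the values were seen.

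**Figure D3:**
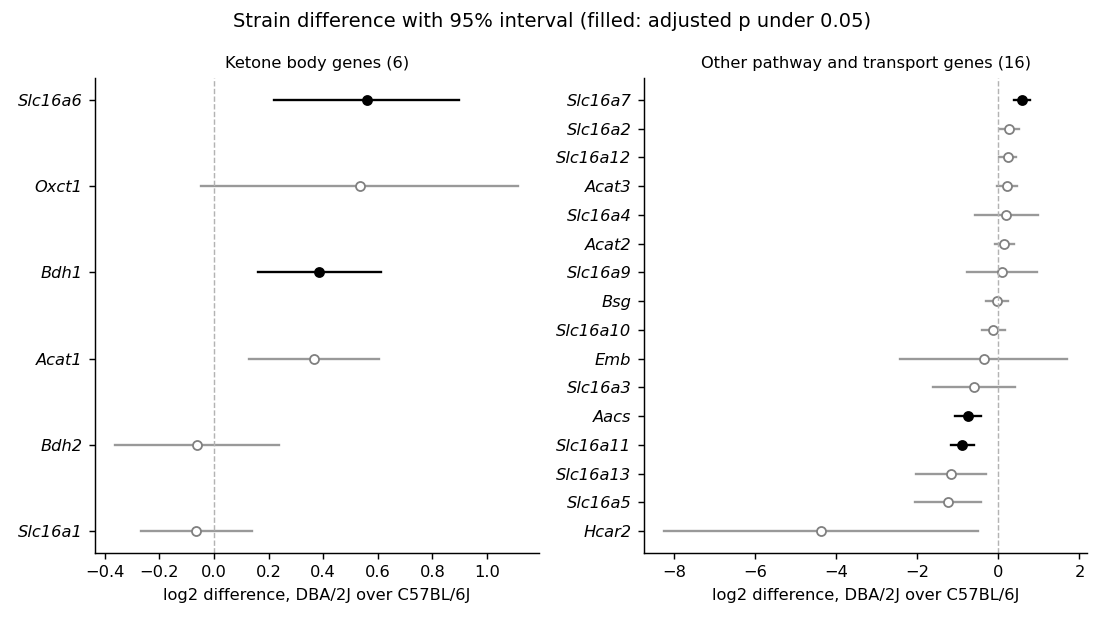
Log2 difference, DBA/2J over C57BL/6J, with its 95% interval for the 6 genes (left) and the 16 tested genes of the wider list (right); filled points have an edgeR adjusted p below 0.05. On the left Slc16a6 (0.56) and Bdh1 (0.39) are filled, and on the right Slc16a7 (0.58), Aacs (-0.75) and Slc16a11 (-0.89); Hcar2 has the widest interval.

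A wider list held 24 other genes of ketone body metabolism, monocarboxylate transport and ketone body sensing, of which 16 were tested, 1 was called higher and 2 lower. The median log2 difference of the 16 was -0.08, against 0.01 over all tested genes, of which 18.2% were called in either direction. The higher gene was Slc16a7, which encodes the carrier MCT2. It had 61.8 and 60.3 CPM in DBA/2J and 41.5 and 40.1 CPM in C57BL/6J, with pairs far tighter than the gap between strains (log2 0.58 ± 0.08, edgeR adjusted p = 0.00881). Its length-scaled level was 51.4% and 48.6% of that of Slc16a1 in DBA/2J and 31.7% and 32.4% in C57BL/6J. Of the 3 carriers, MCT2 and MCT7 were called higher and MCT1, the most abundant per length, was not; whether the carriers differed from each other in this was not tested.

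Aacs, the cytosolic acetoacetyl-CoA synthetase that feeds acetoacetate into lipid synthesis, was lower in DBA/2J. It had 46.5 and 59.7 CPM in DBA/2J against 92.1 and 86.6 CPM in C57BL/6J (log2 -0.75 ± 0.13, edgeR adjusted p = 0.0177). The length-scaled level of Aacs was 13.8 in DBA/2J and 23.2 in C57BL/6J, above that of Oxct1 in all 4 libraries. Slc16a11, a carrier gene of the same family, was lower too, with 9.20 and 9.15 CPM against 17.7 and 16.4 CPM (log2 -0.89 ± 0.11, edgeR adjusted p = 0.00744). The calls of Slc16a7, Aacs and Slc16a11 were lost without either DBA/2J library (0 of the list called in each case; edgeR adjusted p from 0.0568 to 0.141). The list held more called genes with either C57BL/6J library left out, as did all tested genes.

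Among genes of the list that were not called, Hcar2, which encodes a beta-hydroxybutyrate receptor of adipocytes and myeloid cells, had 440 counts in C57BL/6J replicate 1 against 15 in replicate 2 and 12 and 11 in DBA/2J (log2 -4.37 ± 1.56, edgeR adjusted p = 0.109). The 6 neutrophil markers also summed highest in that library, at 6.16 CPM against 0.253 to 0.560 CPM in the other 3. Their part in the Hcar2 level was not tested. The transferase copies Oxct2a and Oxct2b and the carriers Slc16a14, Slc5a8 and Slc5a12 were at 0 counts in all 4 libraries.

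Of 20 genes that supply or govern ketogenesis, each of them tested, 3 were called higher, 2 lower and 15 not, with a median log2 difference of 0.04. Over all tested genes 9.29% were called higher and 8.87% lower, with a median of 0.01. Ppargc1a, a coactivator of fasting gene programmes, was higher by 0.91 ± 0.20 (edgeR adjusted p = 0.0326), the mitochondrial deacetylase gene Sirt3 by 0.31 ± 0.08 (0.0440) and Tsc1, a brake on mTORC1, by 0.54 ± 0.10 (0.0188). Lower were Mlycd (-0.91 ± 0.08) and Acaca (-1.45 ± 0.13), which encode enzymes of malonyl-CoA. Of these 5 calls, that of Acaca alone held with either DBA/2J library left out (highest edgeR adjusted p = 0.0462). With either C57BL/6J library left out more genes of the list were called, as was the case over all tested genes. Cpt1a, the gate of mitochondrial fatty acid entry, stood at 421 and 372 CPM against 348 and 437 CPM, with overlapping libraries. Acacb, which also encodes a malonyl-CoA enzyme, stood at 106 and 121 CPM against 106 and 127 CPM. It was not called (log2 -0.04, edgeR adjusted p = 0.849).

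Of 14 tested genes that respond to feeding, 9 were not called, 2 were called higher in DBA/2J (Ppargc1a and Srebf1, the latter at 0.68) and 3 lower (Igfbp1, Lpin1 and Thrsp), against 18.2% of all tested genes called in either direction. Their median log2 difference was 0.0067. Igfbp1 had 11.8 and 12.0 CPM in DBA/2J against 146 and 109 CPM in C57BL/6J, and Lpin1 had 65.3 and 51.8 CPM against 448 and 377 CPM. Thrsp, a lipogenic gene, stood at -0.80 on the log2 scale. The Igfbp1 and Lpin1 calls held with any single library left out, and the other 3 were lost without either DBA/2J library. More genes of this list were called with either C57BL/6J library left out, and more of all tested genes were too. The gluconeogenic gene Pck1 stood at 3476 and 3345 CPM against 3272 and 4034 CPM. G6pc, also gluconeogenic, stood at 425 and 468 CPM against 251 and 729 CPM, so the C57BL/6J pair lay far apart. The part of feeding state in the values of the 6 ketone body genes was not tested.

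Total counts ranged from 48096706 to 52520737 per library, and all 37 mitochondrially encoded genes were at 0. Of the variance among libraries, 79.1% lay on the first principal component and 15.5% on the second. The 8 hepatocyte markers, albumin among them, were present in every library and 0 were called. Summed over 8 markers each, macrophage genes ran from 134 to 173 CPM, endothelial genes from 183 to 252 CPM and stellate genes from 231 to 278 CPM in DBA/2J against 189 and 133 CPM in C57BL/6J. In those 3 lists Marco and Lyve1 were called lower and Stab2 and Reln higher. All 8 stellate markers had a log2 difference above 0 (median 0.60). More of them were called higher with C57BL/6J replicate 1 left out, but not with C57BL/6J replicate 2 left out. In each of these fits more of all tested genes were called. Bile duct markers summed to 24.1 and 24.7 CPM in DBA/2J and 76.8 and 49.95 CPM in C57BL/6J. Spp1, called lower, made up most of each sum, at 13.6 and 14.4 CPM against 61.8 and 40.4 CPM. Of the 6 bile duct markers, 4 had a log2 difference below 0 and 2 above it, Krt19 (0.56) and Krt7 (0.41), neither called. Red cell markers summed to 343 and 294 CPM against 172 and 210 CPM, with Alas2 and Hba-a1 called higher. Alas2 made up most of each sum, at 259 and 221 CPM against 109 and 143 CPM. Of the other tested red cell markers, Hbb-bs (log2 0.18) and Hbb-bt (-0.31) were not called. Each of these marker calls was lost with either DBA/2J library left out (highest edgeR adjusted p = 0.284, for Stab2), as was that of the pancreatic gene Cela2a. With C57BL/6J replicate 2 left out, 3 neutrophil markers, 2 bile duct markers and 1 muscle marker were called lower. Lymphocyte and kidney markers summed to at most 2.32 CPM and fat markers to at most 6.27 CPM, and pancreas markers to at most 0.681 CPM, with Cela2a at 0 in DBA/2J and 0.616 and 0.661 CPM in C57BL/6J. The part of these cell types in the ketone body results was not tested.

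For each of the 6, the genes of most similar pattern over the 4 libraries were sought among 9077 genes (9078 for Oxct1) of at least 5 CPM, by the distance between centred log2 CPM values. Bdh1 was closest to Zbtb7a and Helz (distances 0.0124 and 0.0171), with 203 genes within 0.1. Acat1 was closest to Specc1l and Knop1, with 187 genes within 0.1, and Slc16a6 to the clock gene Clock and the amino acid carrier chain gene Slc3a2 (0.0182 and 0.0375), with 40. Oxct1 had 4 genes within 0.1, Atf5 the closest at 0.0521. Bdh2 was closest to Vamp4 and Krr1, and Slc16a1 to the mitochondrial carriers Slc25a46 and Slc25a38. With 4 libraries, such likeness describes level patterns and no more.

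Tested genes starting within 500 kb of each of the 6 were also read. Of all tested genes, 18.2% were called in either direction. Near Slc16a6, 2 of 9 were called higher, Arsg and Gm22378. Near Acat1, 2 of 10 were called higher, Exph5 and Atm, and near Bdh1 1 of 5, Acap2. Near Oxct1 and Slc16a1 there was 1 higher gene each, Gm2093 and Mov10, and near Bdh2 1 lower gene, Cisd2. Apart from Arsg, each of these calls was lost with either DBA/2J library left out, and that of Gm22378 with any library left out. These neighbours were named after their values were seen.

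**Figure D4:**
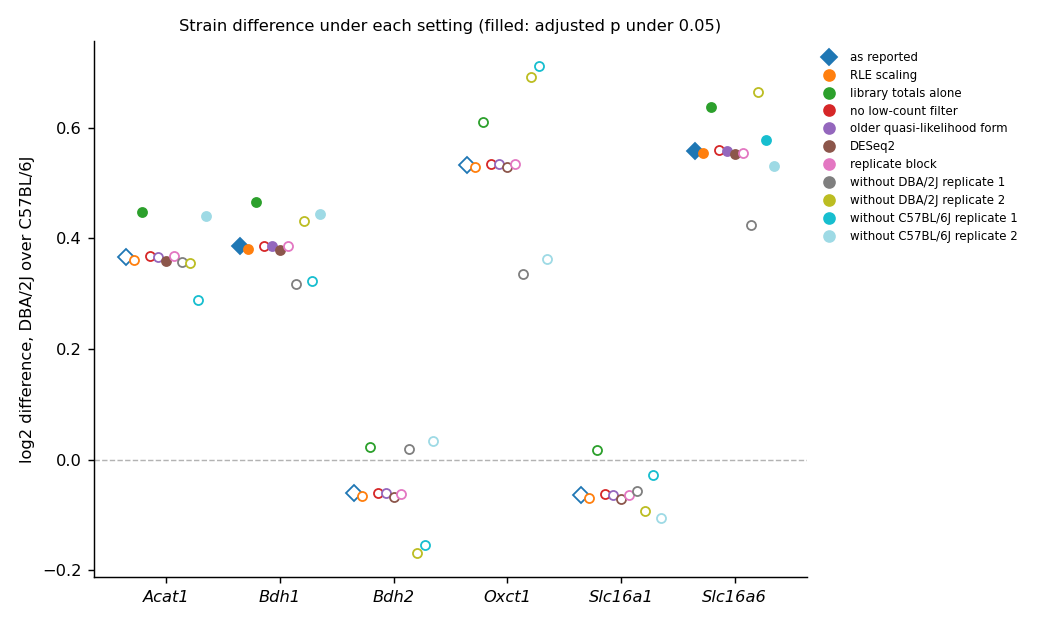
Log2 difference, DBA/2J over C57BL/6J, of each gene as reported (diamond) and under 10 other settings; filled symbols have an adjusted p below 0.05. Acat1, Bdh1, Oxct1 and Slc16a6 stay above 0 in every setting plotted, while Bdh2 and Slc16a1 lie near 0 and cross it.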

How the data were processed

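Liver poly(A) RNA was sequenced as single-end reads of 100 bases, per the labels' protocols. The deposited values were whole-number counts per gene symbol. Per the file headers, the authors made them with featureCounts 2.0.1 on exons of Ensembl release 88 (GRCm38), with no strand option. The same headers carry the paired-read option -p although the labels state single-end reads, and what this did to a count is not given in the sources used here. STAR 2.4.0g1, and featureCounts as version 1.5.2, come from the submitters' processing notes. Exon lengths are those in the files. Reads of both strains are counted on a C57BL/6J-derived reference.

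Counts of all 4 libraries were tested with edgeR 4.0.16 (R 4.3.3; glmQLFit with legacy=FALSE, glmQLFTest, TMM scaling, filterByExpr with a minimum count of 10, strain as sole term). P-values were adjusted over all tested genes by Benjamini-Hochberg, and standard errors came from the F statistic. CPM used TMM-scaled library sizes. A count of 3 equals 0.0571 to 0.0624 CPM. The test was tried on simulated data. DESeq2 1.42.0 was an alternative, as were other scalings, no filter, the older quasi-likelihood form, a replicate block and leaving out each library. Promoter sequences are RefSeq's (GRCm38.p6). Transcripts were compared with blastn 2.17.0 (at least 95% identity over 100 bases): matches to other genes were found only for genes that overlap on the chromosome (Bdh1, Oxct1 and Slc16a6). The labels call the libraries samples of 2 mice per strain. P-values set the strain difference against the spread between these, which edgeR moderates by the spread of all genes. The 6 genes and the lists were chosen with earlier results of these data known. Named were the 6 genes, called genes and abundant members of each list, and the 2 genes of most similar pattern. Intervals on counts cover counting error only. Results for some genes of these lists are not reported here, and they are left out of the counts given for the lists.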

Additional observations from a re-analysis of the deposited data

How the results depend on the processing

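With 2 libraries per strain, small differences near the threshold moved easily. The number of genes called was 2842 (1454 higher and 1388 lower), 2948 with library totals alone (1924 higher and 1024 lower), 1516 with no filter on low counts, and 292 to 4905 with single libraries left out. Of the 6 ketone body genes, 2 were called, 0 with no filter (25810 genes tested in place of 15647), 0 with the replicate block and 0 to 3 with single libraries left out. With no filter Bdh1 and Slc16a6 kept log2 differences of 0.39 and 0.56 (adjusted p = 0.0773 and 0.0765). The same numbers 1 and 2 are not said to pair animals, and deviations of same-numbered libraries correlated at 0.05; with the replicate block the differences were 0.39 and 0.55 (adjusted p = 0.0638 and 0.0620) and 2395 genes were called. Acat1 was called with library totals (0.45) and DESeq2 (0.36). Scaling by library totals moved the median of all genes to 0.09 and turned Bdh2 (0.0223) and Slc16a1 (0.0180) positive. With single libraries left out, log2 differences ranged from 0.32 to 0.44 for Bdh1, 0.29 to 0.44 for Acat1, -0.17 (without DBA/2J replicate 2) to 0.0331 (without C57BL/6J replicate 2) for Bdh2, 0.34 to 0.71 for Oxct1, -0.10 to -0.03 for Slc16a1 and 0.42 to 0.67 for Slc16a6. Of the wider list, 3 genes were called, 5 with DESeq2, 5 with the replicate block and 0 to 5 with single libraries left out. The cause of each lost or gained call was not tested. Oxct1 had the fewest counts of the 6, with 121 to 216 in a library.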
